A study of Mus musculus with 3 samples.

Results

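The Hox genes were examined for binding of the retinoid X receptor RXRA in mouse blood stem cells and multipotent progenitors. Members were all protein-coding genes of the RefSeq table for mm10 whose symbol is Hox followed by a, b, c or d and a number. The rule found 39 of 21900 protein-coding genes, in 4 clusters. HoxA holds 11 genes over 105.5 kb (chr6:52155367-52260880), HoxB 10 genes over 173.9 kb (chr11:96194316-96368254), HoxC 9 genes over 115.7 kb (chr15:102921131-103036856) and HoxD 9 genes over 96.92 kb (chr2:74668225-74765142). All peaks inside a cluster and within 100 kb of its ends were listed. Binding was measured by CUT&RUN, in which an antibody bound to RXRA directs a nuclease that releases the DNA under it. Of the 3 libraries, 1 was made from 10000 haematopoietic stem cells (HSC) and 2 from 50000 multipotent progenitors (MPP) each. Both were sorted as lineage-negative cKit+ Sca1+ cells, HSC as CD48- and CD150+ and MPP as CD150-. The bone marrow came from C57BL/6 mice aged about 10 months, with 3 or 4 animals pooled, and all cells had 1 h of bexarotene, an RXR agonist. The labels give its concentration as 1 mM, and whether that unit is right could not be settled here. The genotype label reads VavCre+; WT and the growth protocol reads Rxrabfl/fl (WT), and the labels do not say how these combine. Vav-Cre acts in blood cells, and whether floxed alleles were recombined in these animals is not given in the sources used here. No untreated cells and no control antibody were analysed here, so all values describe cells exposed to the agonist.

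Hox genes encode homeodomain transcription factors that set position along the body axis, and their order within a cluster follows the order of their expression. In blood, HoxA and HoxB members such as Hoxa9, Hoxb4 and Hoxb5 are known from stem cells and leukaemia, whereas HoxC and most HoxD genes are far less used there. Retinoic acid is a classical inducer of Hox clusters: it acts through RAR and RXR pairs, which bind direct repeats of a short hexamer. MLL complexes keep the clusters active, Polycomb complexes keep them silent, and HOX proteins bind DNA together with PBX and MEIS proteins.

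The peak lists differ in length and depth, which sets what a missing peak can mean. The HSC list holds 4047 peaks, the MPP replicate 1 list 29848 and the MPP replicate 2 list 19570. No total read counts are given, and depth was read from the peaks: genome-wide background came to 0.604 fragments for HSC and to 2.87 and 1.08 fragments for MPP replicates 1 and 2. The smallest pileup called, in fragments over the summit, was 5, 10 and 6 in the same order. There is 1 HSC library, so no HSC value has a replicate check and no difference between cell types was tested. Folds are the authors' enrichment at the summit over local background. They are compared only within a list.

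No Hox gene had an RXRA peak in HSC. A gene was counted as marked where a peak overlapped the 1 kb around either of its ends. In HSC 0 of 39 Hox genes were marked, where 8.21% of all protein-coding genes were (exact binomial 95% interval for 0 of 39, 0 to 9.03). In MPP replicate 1 the marked genes were Hoxa11, Hoxb1, Hoxc9 and Hoxd13, 4 of 39 or 10.3% (2.87 to 24.2), against 41.2% of all genes. In MPP replicate 2 they were Hoxa11 and Hoxa13, 2 of 39 or 5.13% (0.627 to 17.3), against 36.0% of all genes. Hoxa11 was thus marked in both MPP libraries, which was so for 28.9% of all genes. With either MPP library counted, 5 of 39 Hox genes were marked, against 48.3%, and adding HSC left the Hox count at 5, against 48.6%. Both MPP intervals lie below the share of all genes in the same library, whereas the HSC interval includes it. Neighbouring Hox genes lie close together, so their calls may not be independent, and the intervals do not allow for that. With the MPP replicate 1 list held to the length of the HSC list, 1 Hox gene was marked (0.0649 to 13.5%), and that interval includes the 8.83% of all genes. Hox genes are short, with a median length of 3737 bp against 17146 bp for all genes, and the part of length in these shares was not tested.

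**Figure D1:**
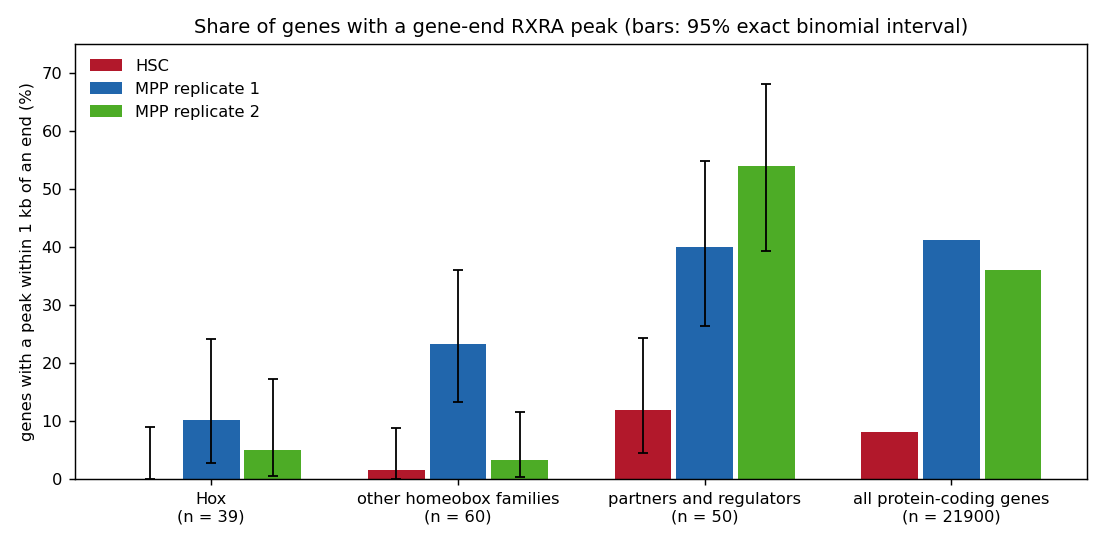
Percent of genes with a peak within 1 kb of either end, for the Hox genes, other homeobox families, the partners and regulators of Hox proteins and all protein-coding genes, in each of the 3 libraries. Bars start at 0 and lines are exact binomial 95% intervals, which cover counting error only. Hox genes stand at 0% for HSC and at 10.3% and 5.13% for the MPP replicates, below all genes at 8.21%, 41.2% and 36.0%.

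Counting a peak anywhere in the gene or within 1 kb of it, an option added after the data were seen, brought in Hoxb3, Hoxb6 and Hoxd3 among others. HSC still had 0 of 39 (12.7% of all genes), while the MPP replicates had 8 (55.0%) and 5 (47.3%). In both MPP libraries 4 Hox genes had such a peak, Hoxa11, Hoxb3 and Hoxd3 among them, against 41.3% of all genes, and in any library 9 did, against 61.4%. By contrast, 26 of the 39 genes had no peak of any library within 5 kb.

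The promoters that carry peaks are given by their sequence, read 5′ to 3′ on the strand of the gene, from 250 bases before to 50 after the start (RefSeq, build GRCm38.p6). They are the neighbours of the clusters at which the summit lay near a listed start, with Hoxd3os1 as the one recurrent site inside a cluster that reaches such a window. Its shared bases all lie downstream of the Hoxd3os1 start, which the MPP replicate 2 peak does not reach. Capitals mark the bases under the peak, for Evx1 that of HSC, for Mtx2 that of MPP replicate 1 and for the rest those covered in both MPP libraries. The windows are chr6:52313248-52313547 (plus strand) for Evx1, chr2:74578899-74579198 (minus) for Lnpk, chr2:74606183-74606482 (minus) for Gm39852, chr2:74825562-74825861 (plus) for Mtx2 and chr2:74716081-74716380 (minus) for Hoxd3os1. The peaks cover 183, 208, 249, 182 and 32 of the 300 bases.
Evx1: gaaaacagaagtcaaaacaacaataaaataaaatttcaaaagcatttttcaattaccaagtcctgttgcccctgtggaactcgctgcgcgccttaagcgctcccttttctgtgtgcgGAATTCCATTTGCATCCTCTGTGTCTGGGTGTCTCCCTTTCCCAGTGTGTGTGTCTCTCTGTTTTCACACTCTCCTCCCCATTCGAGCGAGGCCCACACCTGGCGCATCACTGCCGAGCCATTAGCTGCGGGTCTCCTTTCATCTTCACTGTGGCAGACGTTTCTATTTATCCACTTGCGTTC
Lnpk: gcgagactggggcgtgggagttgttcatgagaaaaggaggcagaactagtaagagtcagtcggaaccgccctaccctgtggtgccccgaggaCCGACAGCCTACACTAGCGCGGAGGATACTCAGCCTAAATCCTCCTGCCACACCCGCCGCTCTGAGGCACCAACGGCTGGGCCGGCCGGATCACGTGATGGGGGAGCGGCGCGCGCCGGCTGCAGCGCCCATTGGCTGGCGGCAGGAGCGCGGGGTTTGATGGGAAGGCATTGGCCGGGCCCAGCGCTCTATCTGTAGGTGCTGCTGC
Gm39852: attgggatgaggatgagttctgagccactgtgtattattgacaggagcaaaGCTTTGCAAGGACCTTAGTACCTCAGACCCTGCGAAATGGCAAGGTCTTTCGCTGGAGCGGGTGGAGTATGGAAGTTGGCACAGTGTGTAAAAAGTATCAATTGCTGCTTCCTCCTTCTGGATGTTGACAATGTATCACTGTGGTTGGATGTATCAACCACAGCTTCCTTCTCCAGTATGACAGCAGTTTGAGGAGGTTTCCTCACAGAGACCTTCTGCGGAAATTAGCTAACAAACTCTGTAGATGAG
Mtx2: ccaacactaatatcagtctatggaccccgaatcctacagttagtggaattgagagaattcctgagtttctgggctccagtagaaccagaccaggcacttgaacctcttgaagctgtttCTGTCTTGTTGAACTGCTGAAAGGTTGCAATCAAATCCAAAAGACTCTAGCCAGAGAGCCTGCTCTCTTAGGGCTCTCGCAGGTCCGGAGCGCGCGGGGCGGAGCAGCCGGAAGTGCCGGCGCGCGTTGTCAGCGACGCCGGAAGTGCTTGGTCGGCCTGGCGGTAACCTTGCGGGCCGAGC
Hoxd3os1: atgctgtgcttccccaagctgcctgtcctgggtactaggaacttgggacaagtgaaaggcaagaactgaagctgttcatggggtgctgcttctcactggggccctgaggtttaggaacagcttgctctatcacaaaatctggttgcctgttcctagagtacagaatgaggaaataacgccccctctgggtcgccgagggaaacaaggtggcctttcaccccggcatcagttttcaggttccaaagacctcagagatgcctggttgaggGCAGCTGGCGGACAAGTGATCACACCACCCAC

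Retinoid receptors bind the hexamer AGGTCA, or the form GGGTCA, the form AGTTCA or the form GGTTCA, singly or as direct repeats with 1 to 5 bases between them. These letters were searched on both strands, and overlapping matches were allowed. No hexamer was found in the promoter windows of Evx1, Lnpk, Gm39852 or Hoxd3os1. The Mtx2 window held 2, on the reverse strand at positions -152 and -123 from the start, the latter under the peak. The table lists 22 of the 39 Hox genes, with 24 promoters, and the other 17 genes are named only by their coordinates. Of the 24 Hox promoters, 11 held a hexamer (45.8%, 25.6 to 67.2), beside 43.7% of all 32851 promoters. None of the 24 held a direct repeat with any of the 5 spacings, which 0.222%, 0.268%, 0.0396%, 0.0822% and 0.0974% of all promoters did, from 1 to 5 bases between. Of promoters under an HSC peak 32.8% held a hexamer, as did 36.8% and 36.1% of those under peaks of the MPP replicates. Peaks overlapped 0, 1 and 0 of the 24 Hox promoters in the same order, beside 5.13%, 24.3% and 22.9% of all promoters, and the overlap, at Hoxd13, was of 6 bases.

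Of the 11 Hox promoters that hold the hexamer, only that of Hoxd13 has any bases under a peak. For comparison, 3 of the others are given: Hoxa11, whose peak lies further upstream, and the blood-active Hoxa9 and Hoxb4. Capitals here mark the hexamer. It starts 65 bases upstream of the start in Hoxa11 (chr6:52245761-52246060, minus strand), 31 downstream in Hoxa9 (chr6:52227321-52227620, minus) and 81 upstream on the reverse strand in Hoxb4 (chr11:96318017-96318316, plus). A match describes the letters of the window and is not a measured binding site.
Hoxa11: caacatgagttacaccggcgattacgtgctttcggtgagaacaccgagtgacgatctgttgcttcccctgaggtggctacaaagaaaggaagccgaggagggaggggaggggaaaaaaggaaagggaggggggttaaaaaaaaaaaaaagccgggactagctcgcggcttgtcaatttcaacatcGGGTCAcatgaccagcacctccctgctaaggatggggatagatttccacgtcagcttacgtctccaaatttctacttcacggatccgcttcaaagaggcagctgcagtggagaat
Hoxa9: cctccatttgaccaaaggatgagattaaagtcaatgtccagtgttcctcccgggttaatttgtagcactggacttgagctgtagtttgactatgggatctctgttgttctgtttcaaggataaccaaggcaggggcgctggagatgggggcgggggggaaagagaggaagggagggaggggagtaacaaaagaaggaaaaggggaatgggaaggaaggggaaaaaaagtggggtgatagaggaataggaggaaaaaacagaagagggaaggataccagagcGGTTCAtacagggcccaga
Hoxb4: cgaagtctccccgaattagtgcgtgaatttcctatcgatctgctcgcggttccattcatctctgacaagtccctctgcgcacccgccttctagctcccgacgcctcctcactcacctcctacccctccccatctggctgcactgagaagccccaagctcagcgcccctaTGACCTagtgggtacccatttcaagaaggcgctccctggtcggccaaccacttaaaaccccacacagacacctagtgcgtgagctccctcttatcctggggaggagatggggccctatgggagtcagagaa

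Hoxa11, a posterior HoxA gene used in limb, kidney and uterus, had the peak of highest fold inside any cluster in MPP replicate 1, though not in replicate 2. The peak lay at chr6:52246428-52246739 in MPP replicate 1, and its fold of 6.81 rested on 35 fragments, with an exact Poisson 95% interval of 24.4 to 48.7. In MPP replicate 2 it lay at chr6:52246436-52246703, at a fold of 5.31 and a pileup of 15 (8.40 to 24.7). The summits stood 705 and 685 bp upstream of the Hoxa11 start, inside the antisense transcript Hoxa11os, and no HSC peak overlapped them. In MPP replicate 1 this peak ranked 2391 of 29848 by fold, with a q of 5.44e-17. In replicate 2 it ranked 11257 of 19570, under the list's median fold of 5.65. Scaled to the HSC background, its signal would be 7.36 fragments from MPP replicate 1 and 8.37 from replicate 2. Both values exceed the smallest pileup called in HSC, 5, and lie under the HSC median of 9.

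A HoxA peak in MPP replicate 2 alone lay in Hoxa13 (chr6:52259087-52259354), at a fold of 4.46 and a pileup of 12. Its summit was 1689 bp downstream of the gene's start and 338 bp from the opposite gene end. Hoxa13 is the most posterior gene of this cluster.

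On the anterior side of the Hoxa11 peak, HoxA was empty in all 3 libraries over a long stretch. It spans 87.85 kb, 83.3% of the cluster, and holds 9 genes whole, from Hoxa2 to Hoxa11. It includes the HoxA genes best known from blood. The empty stretches named here and below are the longest of each cluster. In MPP replicates 1 and 2 an even spread gives just 1.15 and 0.72 peaks over all of HoxA. It gives 3.37 and 2.11 over HoxB, 1.36 and 0.871 over HoxC and 1.25 and 0.801 over HoxD. The stretches are thus not shown to be depleted of peaks. The MPP summit nearest to Hoxa9, a leukaemia and stem cell regulator, was 19145 bp away in replicate 1 and 19125 bp in replicate 2, and the nearest HSC summit 86084 bp. For Hoxa7 the MPP distances were 27942 and 27922 bp, for Hoxa5 41928 and 41908 bp, and for Hoxa10 5661 and 5641 bp.

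In HoxB the peaks in both MPP libraries met at a single place, inside the long Hoxb3 gene. The peak had a fold of 3.99 and a pileup of 18 in MPP replicate 1 (chr11:96311568-96311834). The values were 4.57 and 12 in MPP replicate 2 (chr11:96311544-96311812). Neither overlapped an HSC peak, and on the HSC background the signal would be 3.79 and 6.70 fragments. Its summits stood 6632 and 6669 bp from Hoxb4, which expands stem cells when overexpressed, and the nearest HSC summit to Hoxb4 was 242449 bp away. Hoxb5, a marker of long-term stem cells, had its nearest MPP summits at 4288 and 5477 bp.

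The other HoxB peaks were in MPP replicate 1 alone. At Hoxb1, an anterior gene with well-studied retinoic acid response elements, a peak at a fold of 4.70 and a pileup of 19 lay at chr11:96366096-96366459, 417 bp downstream of the gene's start. A peak inside both Hoxb6 and Hoxb5os (chr11:96299135-96299434) had a fold of 3.20 and a pileup of 15, the lowest fold among the cluster peaks. Another peak of MPP replicate 1, in Gm53, a noncoding gene between Hoxb13 and Hoxb9, had a fold of 4.82 and a pileup of 18. Hoxb13 lay in the longest empty stretch of this cluster, of 60.97 kb.

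HoxC carried peaks in MPP replicate 1 alone. A peak at Hoxc9 (chr15:102975818-102976115), a thoracic patterning gene, had a fold of 3.38 and a pileup of 14. Its summit was 1097 bp from the gene end, so that just the edge of the interval entered the 1 kb window. Another peak between Hoxc8 and Hoxc9 (chr15:102987471-102987721) had a fold of 4.91 and a pileup of 18. Hoxc10, Hoxc11, Hoxc12 and Hoxc13 lay in an empty stretch of 54.69 kb. MPP replicate 2 and HSC had no peak in the cluster.

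In HoxD both MPP libraries shared a peak inside Hoxd3, next to the start of its antisense transcript Hoxd3os1. The peak had a fold of 6.65 and a pileup of 26 (17.0 to 38.1) in MPP replicate 1 (chr2:74715807-74716145), where it ranked 2794 of 29848. It had a fold of 4.49 and a pileup of 9 (4.12 to 17.1) in MPP replicate 2 (chr2:74715809-74716112), where it ranked 16221 of 19570. The summits lay 186 and 249 bp past the Hoxd3os1 start. On the HSC background the signal would be 5.47 and 5.02 fragments, at the smallest pileup called there. Hoxd13, the most posterior gene and a digit regulator, had a peak in MPP replicate 1 alone (chr2:74668269-74668632), 105 bp downstream of its start, at a fold of 3.60 and a pileup of 13. The noncoding gene Haglr, between Hoxd3 and Hoxd1, had a peak in MPP replicate 2 alone, at a fold of 4.87 and a pileup of 11. Hoxd8 to Hoxd12 lay in an empty stretch of 47.17 kb.

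**Figure D2:**
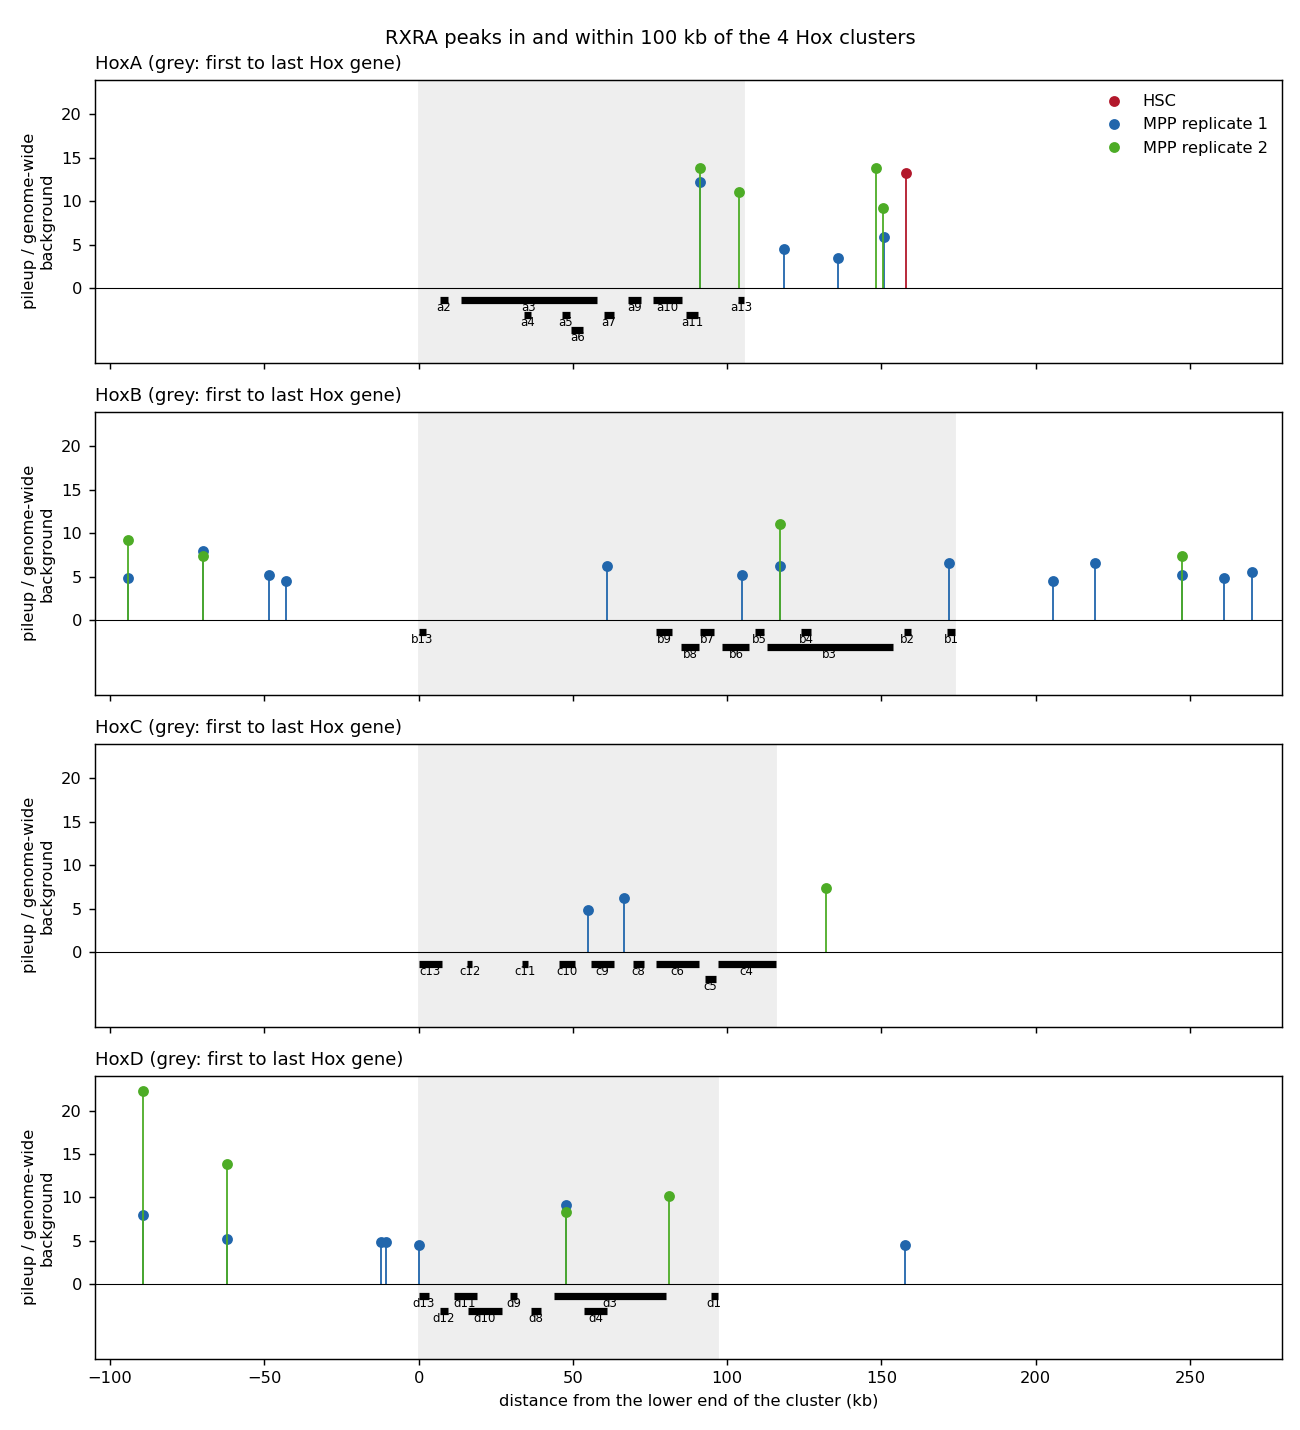
Maps of the 4 clusters with 100 kb on each side, in kb from the lower end of the cluster, with Hox genes drawn to scale under the axis and the cluster in grey. Each stem is a peak summit, coloured by library, and its height is the pileup divided by the genome-wide background of that library. No HSC stem stands inside a cluster, and sites at Hoxa11, Hoxb3 and Hoxd3 carry stems of both MPP libraries. Not every gene and peak is drawn.

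HoxA and HoxB, the clusters used in blood stem cells, were not set apart from HoxC and HoxD by the counts of marked genes or of peaks inside the clusters. Of HoxA and HoxB genes, 2 of 21 were marked in MPP replicate 1 (9.52%, 1.18 to 30.4) and 2 of 21 in replicate 2. Of HoxC and HoxD genes, 2 of 18 were marked in replicate 1 (11.1%, 1.38 to 34.7) and 0 of 18 in replicate 2 (0 to 18.5). In HSC the counts were 0 of 21 and 0 of 18. HoxA and HoxB took 60.0% of the cluster peaks in MPP replicate 1 (6 of 10, 26.2 to 87.8) and 66.7% in replicate 2 (4 of 6, 22.3 to 95.7). They make up 56.8% of the clusters' length, which lies inside both intervals. In the flanks they took 70.6% of the peaks in MPP replicate 1 (12 of 17, 44.0 to 89.7). In replicate 2 they took 62.5% (5 of 8, 24.5 to 91.5), and their 50% of the flank length lies inside both intervals. These intervals are wide and would also hold a large difference between the pairs of clusters. Of the recurrent sites described here, those at Hoxa11 and Hoxb3 are in HoxA and HoxB, and that at Hoxd3 in HoxD.

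The number of peaks in the clusters was near what an even spread would give, although few of the Hox genes had a peak at a gene end. An even spread places each list's peaks uniformly along their own chromosome. In HSC, 0 peaks lay in the 492.1 kb of cluster, where an even spread gives 0.886, and the exact Poisson interval of the count runs from 0 to 3.69. In MPP replicate 1 there were 10 peaks against 7.13, a density of 20.3 per Mb (exact Poisson interval 9.75 to 37.4) and a ratio of 1.40 (0.673 to 2.58). MPP replicate 2 had 6 against 4.50, a density of 12.2 per Mb (4.48 to 26.5) and a ratio of 1.33 (0.490 to 2.91). These intervals all include the even spread. In HoxA with HoxB the ratios were 1.33 and 1.42, and in HoxC with HoxD 1.53 and 1.20, in MPP replicate 1 and 2. HoxA had 2 and 3 peaks, HoxB 4 and 1, HoxC 2 and 0 and HoxD 2 and 2.

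**Figure D3:**
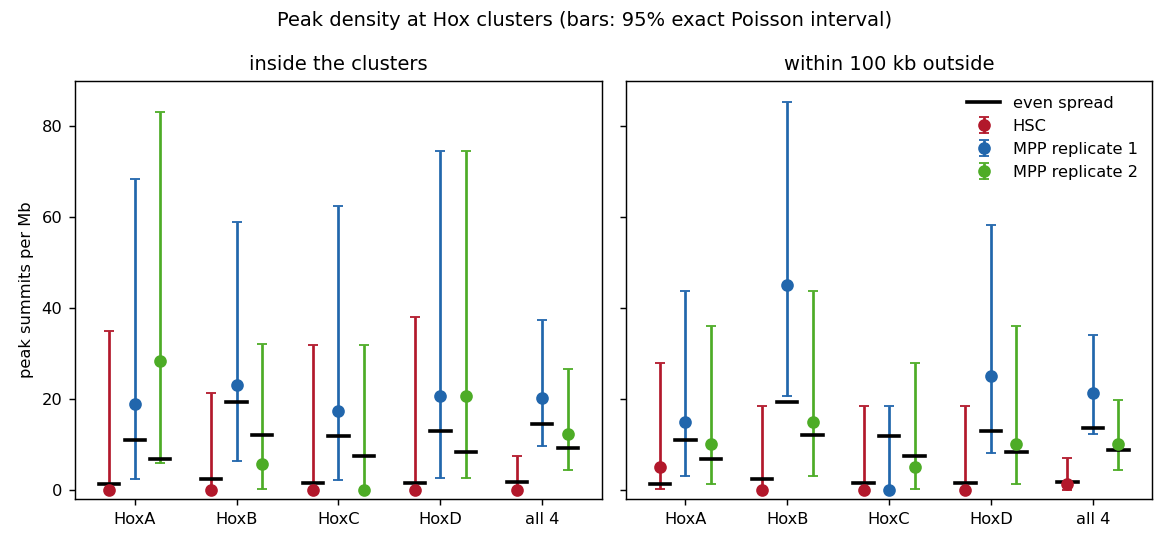
Peaks per Mb inside the clusters and in their 100 kb flanks, by library, with exact Poisson 95% intervals for counting error, beside the density that an even spread along the chromosome gives. Inside all clusters together the MPP libraries stand at 20.3 and 12.2 peaks per Mb, and each interval includes the even spread.

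In MPP replicate 1 their folds ran from 3.20 to 6.81 with a median of 4.51, beside 4.39 for the whole list, and 5 of 10 stood above that value. The Hoxa11 and Hoxd3 peaks were among the top 10% of the list by fold. In MPP replicate 2 the folds ran from 4.46 to 5.57 with a median of 4.72, and 0 of 6 stood above the list's median of 5.65. At a stricter q of 1e-05, 6 of the 10 remained, beside 53.5% of the whole list, and 2 of the 6, beside 60.4%.

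The median distance from a Hox gene end to the nearest summit was 196.4 kb for HSC summits and 10.7 and 26.3 kb for those of MPP replicates 1 and 2. Over all protein-coding genes these medians were 119.4, 3.38 and 7.70 kb. For HoxA and HoxB genes they were 142.9, 10.7 and 19.1 kb, and for HoxC and HoxD genes 460.0, 10.9 and 37.0 kb. By single cluster the HSC medians were 100.4 kb for HoxA, 222.3 for HoxB, 168.7 for HoxC and 770.4 for HoxD. The pooled HSC value of HoxC with HoxD thus lies between those of its clusters. By median, HoxC genes lay nearer to an HSC summit than HoxB genes, and HoxD genes lay farthest. Neighbouring Hox genes share their nearest peak, so these distances are not independent of each other.

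**Figure D4:**
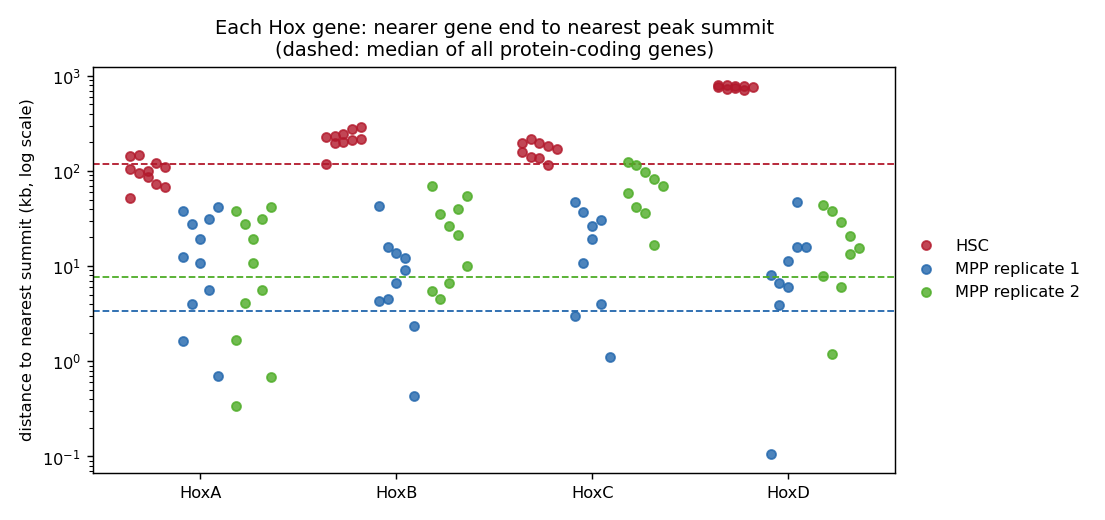
Distance in kb, on a log axis, from each of the 39 Hox genes to the nearest peak summit of each library, by cluster, with the median of all protein-coding genes as a line. The HSC points lie at 52.6 kb or more, and the Hox medians are 196.4, 10.7 and 26.3 kb in HSC and the MPP libraries.

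The flanks held the single HSC peak near any Hox cluster, at the start of Evx1. Evx1 is a homeobox gene that sits beside HoxA and is related to the Hox genes. The peak (chr6:52313365-52313636) had a fold of 5.44, a q of 3.39e-04, and 8 fragments over the summit (3.45 to 15.8). Its summit stood 44 bp upstream of the Evx1 start. It was ranked 2100 of 4047 by fold, near the middle of the list. Neither MPP library had a peak there, and their nearest summits were 7390 and 7592 bp from the Evx1 start. Scaled to the MPP backgrounds, the HSC signal would be 38.0 fragments in replicate 1 and 14.3 in replicate 2, above the smallest pileups called there. Over all HSC peaks, 85.2% overlapped a peak of either MPP library. With a pileup of 8 in 1 library, this peak has no replicate.

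In the MPP libraries the flanks held 17 peaks in replicate 1, against 10.98 for an even spread (ratio 1.55, 0.902 to 2.48), and 8 in replicate 2, against 6.94 (1.15). The strongest in replicate 2 lay at the shared start of Lnpk and 4930445N08Rik beside HoxD (chr2:74578733-74579271). Lnpk encodes lunapark, a protein of the endoplasmic reticulum. The fold there was 6.20 with a pileup of 23 in MPP replicate 1, and 11.5 with 24 in replicate 2, where it ranked 272 of 19570. On the HSC background this would be 4.84 and 13.4 fragments, and no HSC peak was called. The start of the noncoding gene Gm39852, also beside HoxD, had peaks with folds of 4.13 and 7.65 and a pileup of 15 in both. On the other side of HoxD, Mtx2, which encodes the mitochondrial import protein metaxin, had a peak in replicate 1 alone (chr2:74825680-74826171), its summit 75 bp upstream of the start, with a fold of 3.62 over 13 fragments.

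Beside HoxB, the flanks held 9 peaks in MPP replicate 1, where an even spread gives 3.87 (ratio 2.32, 1.06 to 4.41). MPP replicate 2 had 3 there, against 2.42 (ratio 1.24, 0.256 to 3.62). No other interval for a single cluster or its flanks, in any library, excluded the even spread. The HoxA and HoxB flanks together had 12 peaks in MPP replicate 1 against 6.05 (ratio 1.98, 1.03 to 3.47), 9 of them beside HoxB. Those of HoxC and HoxD had 5 against 4.93 (ratio 1.01, 0.329 to 2.37). In replicate 2 these ratios were 1.32 (0.429 to 3.08) and 0.95 (0.196 to 2.78). A peak at an end of Ttll6, a tubulin-modifying enzyme, recurred with folds of 6.20 and 3.98. Its summits lay 84 and 25 bp from that gene end and inside the overlapping gene Calcoco2, an autophagy receptor. Another at Calcoco2 had folds of 3.81 and 4.98. One upstream of Skap1, an adaptor of T cell receptor signalling, had folds of 4.13 and 4.14. Its summits lay 22803 and 22946 bp from Skap1, and 5132 and 5275 bp from the nearest gene, Gm11529. The start of Skap1 itself had a peak in replicate 1 alone, with a fold of 4.39. Beside HoxA a peak near Evx1os recurred with folds of 4.39 and 4.59. The HoxC flanks had 0 peaks in MPP replicate 1, against 2.35 for an even spread.

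Merged across libraries, the clusters held 12 sites, of which 4 were in both MPP libraries, 6 in replicate 1 alone and 2 in replicate 2 alone. The flanks held 20 sites, with 6, 11 and 2 in the same order and the Evx1 site in HSC alone. Of the MPP replicate 1 peaks in clusters and flanks, 10 of 27 overlapped a replicate 2 peak (37.0%, 19.4 to 57.6), beside 44.9% of that whole list. In the other direction it was 10 of 14 (71.4%, 41.9 to 91.6), beside 68.1%. Sharing between the MPP libraries at the Hox loci was thus within counting error of the rest of the genome. None of the 27 and none of the 14 overlapped an HSC peak, beside 9.75% and 15.9% of the lists.

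Other homeobox families were counted the same way, as developmental genes outside the clusters. Of 60 genes of the Dlx, Irx, Nkx, Lhx, Pax, Emx, Otx, Msx, Gsx, Evx and related families, HSC marked Evx1 alone (1.67%). MPP replicate 1 marked 14 (23.3%, 13.4 to 36.0) and MPP replicate 2 marked Dlx4 and Lhx3 (3.33%). Both MPP shares were below those of all protein-coding genes, 41.2% and 36.0%, while the HSC interval, 0.0422 to 8.94, includes 8.21%.

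Genes for the partners and regulators of Hox proteins were marked at about the rate of all genes or above it. Of 50 such genes, HSC marked 6 (12.0%, 4.53 to 24.3), MPP replicate 1 marked 20 (40.0%, 26.4 to 54.8) and MPP replicate 2 marked 27 (54.0%, 39.3 to 68.2), beside 8.21%, 41.2% and 36.0% of all genes. The HSC and MPP replicate 1 intervals include the share of all genes, and that of MPP replicate 2 lies above it. Among the 9 PBX, MEIS and PREP partners, HSC marked 2 (2.81 to 60.0%) and the MPP replicates marked 3 (7.49 to 70.1%) and 4 (13.7 to 78.8%), and each interval includes the share of all genes. Pbx4 had a peak in all 3 libraries, with folds of 9.68, 4.70 and 6.89. Meis1, the cofactor of Hoxa9 in leukaemia, had folds of 6.03 and 8.73 in the MPP libraries, and Pbx3 7.44 and 8.16.

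On the activating side, HSC marked 3 of 13 MLL and DOT1L genes (5.04 to 53.8%), while the MPP replicates marked 8 (31.6 to 86.1%) and 9 (38.6 to 90.9%). The shares of all genes, 8.21%, 41.2% and 36.0%, lie inside the first 2 of these intervals and below the last. Ash2l and Wdr5, core subunits of MLL complexes, had peaks in all 3 libraries, with folds of 7.11, 4.39 and 4.80 for Ash2l and 5.92, 5.40 and 4.40 for Wdr5. Kmt2a, which encodes MLL itself, had folds of 5.60 in HSC and 4.62 in MPP replicate 2. Aff1, a partner in MLL fusions, had folds of 5.76 and 7.05 in the MPP libraries.

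Of 18 Polycomb genes, HSC marked 0 (0 to 18.5%) and the MPP replicates marked 8 (21.5 to 69.2%) and 11 (35.8 to 82.7%), beside 8.21%, 41.2% and 36.0% of all genes, each inside its interval. Phc3, a subunit of the first Polycomb complex, had folds of 5.91 and 10.3 in the MPP libraries. The methyltransferase genes Ezh1 and Ezh2 had folds of 5.60 and 4.78 and of 5.13 and 4.87, and their partner Suz12 4.91 and 5.29. None of the 3 caudal genes Cdx1, Cdx2 and Cdx4, which switch on Hox genes in the embryo, was marked at a gene end. The shares of all genes were 8.21%, 41.2% and 36.0%, so 3 genes can show little. Cdx1 had a peak inside the gene in both MPP libraries, where 41.3% of all genes had one in the gene or within 1 kb. Of the retinoic acid receptor genes, Rarg alone was marked, in MPP replicate 1 with a fold of 3.65, where 41.2% of all genes were marked. When peaks inside the gene were counted, Rara, Rarb and Rarg all had one in both MPP libraries, as did 41.3% of all genes, and Rara had one in HSC, as did 12.7%.

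Among 4 genes for proteins of Hox boundaries, Zfp143 was marked in HSC and MPP replicate 2, with folds of 7.38 and 5.49. Ctcf and Maz were marked in MPP replicate 2 alone, with folds of 5.14 and 5.65. Rad21 was not marked at a gene end. HSC thus marked 1 of 4 (0.631 to 80.6%), MPP replicate 1 marked 0 (0 to 60.2%) and MPP replicate 2 marked 3 (19.4 to 99.4%). The shares of all genes, 8.21%, 41.2% and 36.0%, lie inside these intervals, so 4 genes can show little.

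Noncoding genes inside the clusters were marked at about the rate of noncoding genes elsewhere. The clusters overlap 25 long noncoding genes. At a gene end HSC marked 0 of 25 (0 to 13.7%), against 3.07% of all 12727 long noncoding genes. MPP replicate 1 marked 3, Hoxd3os1 among them (12.0%, exact binomial interval 2.55 to 31.2), against 17.4%. MPP replicate 2 marked 4, the same 3 and Haglr (16.0%, 4.54 to 36.1), against 13.0%. Both MPP intervals include the share of all long noncoding genes. Some of these genes share a peak, so they are not independent. Hotair, the HoxC noncoding RNA, had its nearest MPP summit 27989 bp away.

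The clusters also hold 6 microRNA genes of the Mir10, Mir196 and Mir615 families, some of which repress Hox transcripts. None was marked in any library, where 1.87%, 8.31% and 6.68% of all microRNA genes were in HSC, MPP replicate 1 and MPP replicate 2. The nearest summits were 2501 bp from Mir196a-2, 5530 bp from Mir10a and 10126 bp from Mir10b in MPP replicate 1.

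The labelled cell types were checked as far as peaks allow, since the lists hold no expression. Of 10 stem and progenitor markers, HSC marked 0 (0 to 30.9%) and the MPP replicates marked 5 (18.7 to 81.3%) and 3 (6.67 to 65.3%). The shares of all genes, 8.21%, 41.2% and 36.0%, lie inside these intervals, so the counts do not bear on the identity of the cells. Kit, Flt3 and Hlf were marked in both MPP libraries. Of 4 markers each for T cells, B cells, granulocytes and erythroid cells, the MPP libraries marked 1 each, and HSC marked the B cell gene Ms4a1. Whether other cells had a part in the Hox results was not tested.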

How the data were processed

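RXRA CUT&RUN was analysed in 1 HSC and 2 MPP libraries, with intervals of peaks called in each library on its own. The submitters' processing notes name Trim Galore 0.4.2 with cutadapt 1.9.1, and also Bowtie2 2.3.4.1, MACS2 2.1.4 and build mm10. Not given in the sources used here are tool settings, the handling of duplicates and any control in peak calling. The labels do not say whether the MPP libraries came from separate pools, so their spread may be technical.

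The authors' deposited fold, a ratio, sets the pileup of a summit over its local background. The deposited −log10 p-value and −log10 q-value were used as given, and the deposited score, a rescaled q, was not used. Pileup and background were solved from fold and p, with a Poisson distribution. Whole-number pileups, with a tolerance of 0.001 in −log10 p, resulted for 99.98%, 100% and 99.99% of peaks in HSC, MPP replicate 1 and MPP replicate 2. The lowest background in a list was taken as its genome-wide background, and pileups were scaled between libraries by the ratio of these.

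Genes and promoter windows came from RefSeq tables of GRCm38.p6, without exons or, for 17 Hox genes, strand. Some genes and sites are counted but not reported here, nor drawn on the maps. Of 51 listed partner and regulator symbols, 50 were found. A whole genome was not used here, so the planned search of the 200 bases around each summit was not run. A peak belonged to a cluster by its summit, and peaks were shared where they overlapped by at least 1 bp. The even spread used the highest coordinate of genes or peaks as chromosome length, with no resampling. Intervals are exact (Clopper-Pearson or Poisson, 95%) and cover counting error only. No test was made.

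Every Hox gene with a gene-end peak is named, the others by cluster or stretch, cluster neighbours where a flank peak lay within 1 kb, and up to 4 genes per partner list ranked by how many libraries marked them, with ties by fold in HSC and next in MPP replicate 1. Rara, Rarb, the members with peaks inside the gene, and the blood-active members given by distance were named after values were seen, and the noncoding genes of the clusters were added then. The peak inside Cdx1 was also added after values were seen. Members and lists were chosen with earlier results of these data known. Alternatives were a q of 1e-05, MPP lists held to the HSC length by fold, windows of 500 bp and 5 kb, starts alone, flanks of 50 and 200 kb, 50% overlap, gaps of 1 kb, removal of the 1% of peaks with the highest fold, and each MPP library left out. Calls and pileup recovery were tested on simulated data. Python 3.11.15, pandas 2.3.3 and scipy 1.17.1 were used.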

Additional observations from a re-analysis of the deposited data

How the results depend on the processing

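Of 88 alternative values, 47 stayed within 1.5 times the reported count or within its interval and 41 moved. HSC had 0 marked Hox genes and 0 cluster peaks under every alternative. The HSC summit nearest to any Hox gene end was 52.57 kb away, beyond every window used, so these counts could not have differed. The HSC share of 0 was by necessity below that of all genes in 9 of 9 settings of the gene-end count. In MPP the Hox share was below that of all genes in 29 of 29 settings. The exact interval of the Hox share lay below the share of all genes in every MPP setting but 1, MPP replicate 1 held to the HSC length (0.0649 to 13.5% against 8.83%). Such intervals treat neighbouring Hox genes as independent. At a q of 1e-05, which leaves fewer peaks, cluster counts were 6 in MPP replicate 1, 2 in replicate 2 and 6 merged sites, flank counts 0 in HSC, 3, 3 and 5, and marked genes 2, 1 and 2 in either. With MPP lists held to the HSC length, again fewer peaks, these were 2, 0 and 2 for clusters, 2, 2 and 3 for flanks, and 1, 0 and 1 for genes. Flanks of 50 kb gave 0 in HSC, 9, 3 and 11, and flanks of 200 kb gave 6, 26, 15 and 32. Windows of 500 bp gave 2, 1 and 3 marked genes and windows of 5 kb 12, 6 and 13. Starts alone, known for 22 Hox genes, gave 1 in MPP replicate 2 and 3 in either. Peaks in the gene or within 1 kb gave 8, 5 and 9. Leaving out an MPP library gave 6 to 10 cluster sites, 8 to 17 flank sites and 2 to 4 marked genes. The lower value of each was that without replicate 1, whose list is the longer. Sharing between the MPP libraries has no value without either of them. No paired analysis was possible because no result comes from a test and the HSC library has no replicate.

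Depth limits the HSC values. The recurrent site at Hoxb3 would scale to fewer than the 5 fragments of the weakest HSC peak from MPP replicate 1, and to more from replicate 2. On the first value an HSC peak there would be under the weakest one called, and on the second above it. At Hoxa11 and Hoxd3 both values reach it, and the HSC absence rests on 1 library. Peak calling without a known control, mouse pools of unknown overlap and treatment of all cells with agonist also limit these values.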
